A study of Mus musculus with 18 samples.

Results

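Phototransduction genes of rods (5), rod transcription factor genes (2) and *Neurod* genes (2) were followed through 18 RNA-seq libraries of mouse retinal pigment epithelium (RPE), a tissue from which the neural retina had been removed. The 9 genes, of 52636 in the count table, were *Sag*, *Gnat1*, *Pde6a*, *Pde6b*, *Pde6g*, *Nrl*, *Nr2e3*, *Neurod1* and *Neurod4*, and they were found by symbol. They had been chosen by their levels in *Lrp2* sh2 versus ctrl sh, where the *Neurod* genes and the rod genes stood out in earlier results on these libraries, so that contrast is given as a description only and no test of it is reported.

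Rods detect dim light. Their light-activated visual pigment activates transducin, whose alpha subunit switches on the cGMP phosphodiesterase, and arrestin then stops the response. NRL and NR2E3 are the transcription factors that set the rod fate, and NEUROD1 and NEUROD4 are basic helix-loop-helix (bHLH) factors of developing retinal neurons; in the retina NEUROD1 is known in photoreceptors and NEUROD4 in bipolar and amacrine cells. None of these genes is known as a gene of the RPE, the pigmented layer that lies against the rod outer segments and takes up their shed tips.

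All mice were C57BL/6 and were sampled at postnatal day 14, with 3 libraries in each of 6 groups. One group was uninjected, and the other 5 had received at birth a subretinal AAV8 vector with the RPE promoter Best1. The cargoes were GFP, nSREBP2 (the nuclear, active form of the sterol regulator SREBP2), ctrl sh (a control short hairpin RNA), *Lrp2* sh1 and *Lrp2* sh2 (hairpins against the endocytic receptor gene *Lrp2*). Both eyes of 1 mouse went into 1 library, after the retina was peeled from the eyecup and the pigmented cells were loosened with papain, so the adjusted p-values below measure the spread between mice.

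The vector targets moved as labelled. *Srebf2*, the gene of SREBP2, was at 208 to 233 CPM (read counts per 1000000, after TMM scaling over the 18 libraries) with nSREBP2 and at 83.7 to 113 CPM with GFP. *Lrp2* was at 29.8 to 42.8 CPM with *Lrp2* sh1 and at 34.7 to 43.7 CPM with *Lrp2* sh2, against 87.8 to 166 CPM with ctrl sh. The pigment gene *Tyrp1* was at 1541 to 3228 CPM in all 18 libraries, and library totals ran from 8921885 to 13696934 counts. More than 100 Y-linked counts were found in 6 libraries, which were all 3 of nSREBP2, 1 uninjected and 2 of *Lrp2* sh2, and the GFP libraries had 2 to 4. Sex and vector therefore cannot be told apart in nSREBP2 versus GFP.

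The genes lie on GRCm38 as follows. *Sag* (ENSMUSG00000056055.13), rod arrestin, spans chr1:87803680-87845158 on the plus strand, and *Gnat1* (ENSMUSG00000034837.12), the rod transducin alpha subunit, spans chr9:107674474-107679712 on the minus strand. The phosphodiesterase genes are *Pde6a* (ENSMUSG00000024575.15) for the alpha subunit, *Pde6b* (ENSMUSG00000029491.7) for the beta subunit at chr5:108388391-108432397 on the plus strand, and *Pde6g* (ENSMUSG00000025386.2) for the inhibitory gamma subunit at chr11:120447605-120453500 on the minus strand. *Nrl* (ENSMUSG00000040632.15) spans chr14:55518978-55524981, *Nr2e3* (ENSMUSG00000032292.8) chr9:59942771-59960659, *Neurod1* (ENSMUSG00000034701.9) chr2:79452521-79456751 and *Neurod4* (ENSMUSG00000048015.4) chr10:130268152-130280240, all on the minus strand. Of the 2729 exon bases of *Neurod1*, 355 are also covered by the same-strand gene *Cerkl* or the opposite-strand gene *Gm26755*, and 61 of the 3369 of *Nr2e3* by *Gm15507*. Reads there could belong to either gene.

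Promoter sequences from RefSeq (GRCm38.p6) were held for 6 of the 9 genes. The windows of *Nrl*, *Nr2e3* and *Neurod1* overlapped annotated exon bases and are not shown. Those of *Sag*, *Pde6b* and *Neurod4* are shown. Each is the 250 bases before the annotated start, on the strand of the gene and free of annotated exon bases. Capitals mark TAATC (the core bound by homeodomain factors of the OTX family) and TGCTGA (the core bound by NRL and related factors) on either strand. The windows are chr1:87803430-87803679 (plus strand), chr5:108388123-108388372 (plus strand) and chr10:130280255-130280504 (minus strand).
Sag: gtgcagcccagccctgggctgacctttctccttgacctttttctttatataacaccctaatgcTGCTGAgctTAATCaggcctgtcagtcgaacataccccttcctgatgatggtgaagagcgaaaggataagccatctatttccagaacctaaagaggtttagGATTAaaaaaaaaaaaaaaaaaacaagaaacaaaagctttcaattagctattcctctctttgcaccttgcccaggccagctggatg
Pde6b: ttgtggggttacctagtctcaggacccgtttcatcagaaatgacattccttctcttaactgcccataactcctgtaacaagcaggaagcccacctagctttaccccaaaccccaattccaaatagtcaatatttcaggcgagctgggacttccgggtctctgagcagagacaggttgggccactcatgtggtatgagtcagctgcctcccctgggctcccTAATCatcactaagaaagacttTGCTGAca
Neurod4: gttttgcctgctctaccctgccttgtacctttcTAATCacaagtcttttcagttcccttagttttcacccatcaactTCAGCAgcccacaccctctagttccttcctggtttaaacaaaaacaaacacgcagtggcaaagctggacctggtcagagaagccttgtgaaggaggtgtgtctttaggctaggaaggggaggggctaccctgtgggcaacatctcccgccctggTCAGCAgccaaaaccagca
TAATC was present in 19.8%, TGCTGA in 16.1% and both in 3.3% of 32851 mouse promoters of the same 250-base length. *Sag* held 2 TAATC and 1 TGCTGA, *Pde6b* 1 of each, and *Neurod4* 1 TAATC and 2 TGCTGA. The windows not shown did not hold both: *Nrl* held neither, *Nr2e3* 1 TAATC alone and *Neurod1* 2 TGCTGA alone. The bHLH motif CANNTG, an E-box, was present in 66.2% of all promoters, in *Sag* (1 match) and in *Pde6b* (2 matches), but not in these 250 bases of *Neurod4*. A match is a description of the letters and not a binding site.

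The rod genes were low but measurable in uninjected tissue, and they were high in all 3 nSREBP2 libraries, in 1 GFP library and in 1 *Lrp2* sh2 library. The summed level of the 7 rod genes (*Sag* to *Nr2e3*) was 18.03, 13.2 and 14.4 CPM in uninjected, 18.8, 51.8 and 140 CPM in GFP, and 193, 161 and 136 CPM in nSREBP2, in the order of replicates 1, 2 and 3. It was 8.50, 23.5 and 13.8 CPM in ctrl sh, 9.58, 8.93 and 28.04 CPM in *Lrp2* sh1, and 204, 47.9 and 52.0 CPM in *Lrp2* sh2. Means were 163 ± 28.6 (SD, n = 3) in nSREBP2, 101 ± 89.1 in *Lrp2* sh2, 70.4 ± 62.9 in GFP, 15.5 ± 10.9 in *Lrp2* sh1, 15.3 ± 7.63 in ctrl sh and 15.2 ± 2.52 in uninjected. The last 3 groups did not differ beyond their spread, and *Lrp2* sh2 and GFP, whose libraries ranged widely, overlapped with each other and with nSREBP2. In such bulk samples fewer cells of a type and less RNA per cell cannot be told apart.

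**Figure D1:**
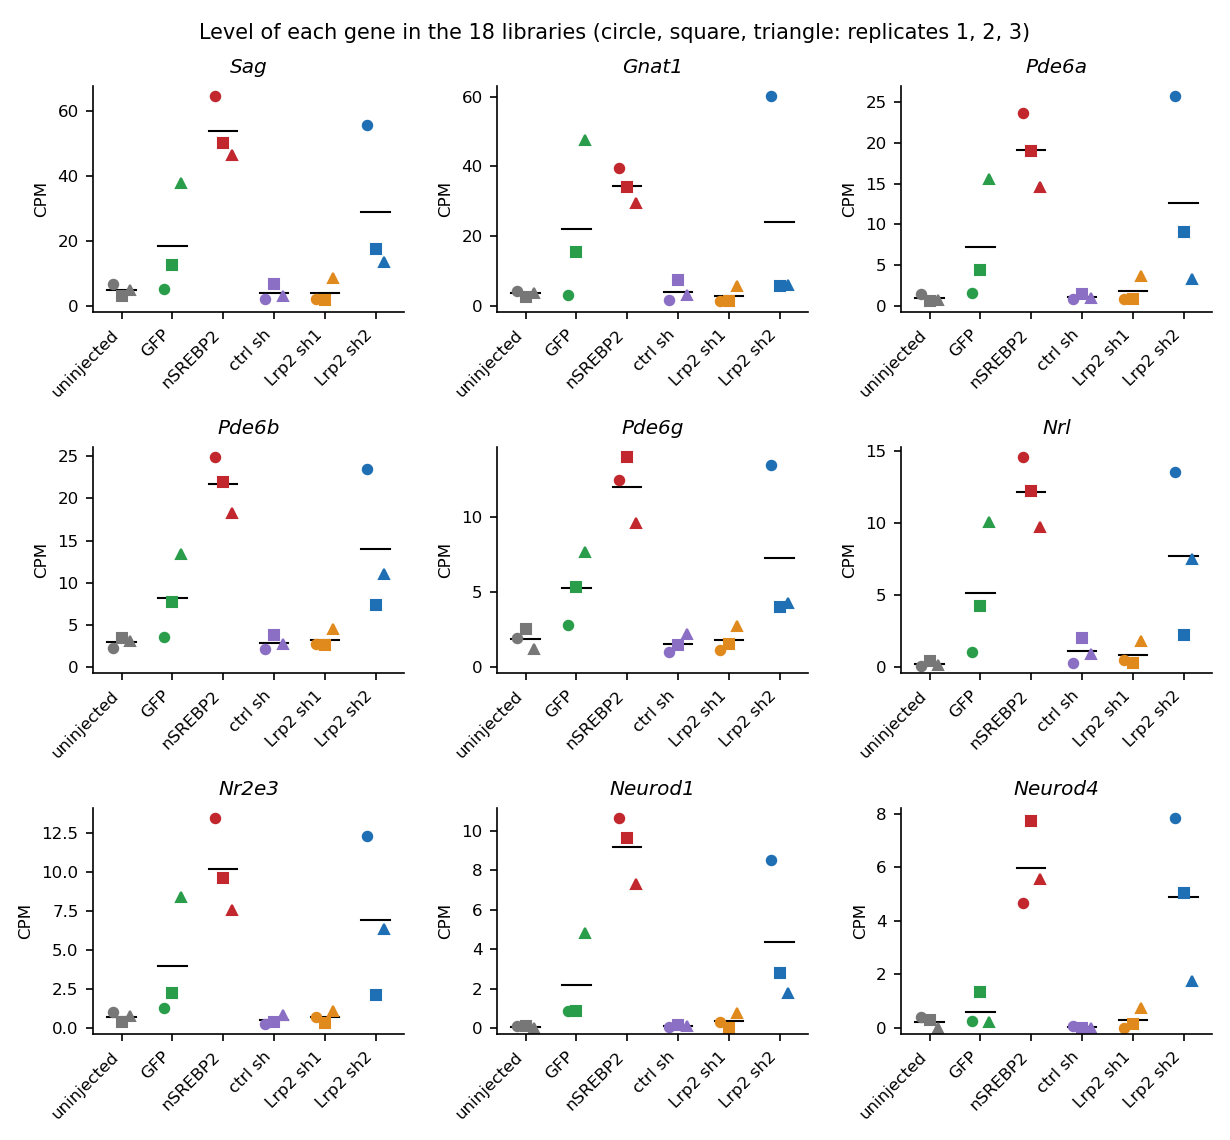
Level of each of the 9 genes (CPM, linear axis from 0) in the 18 libraries, by group. Points are libraries (circle, square and triangle for replicates 1, 2 and 3) and bars are group means (n = 3). GFP replicate 3 is the highest GFP library for each rod gene, above every nSREBP2 library for *Gnat1* and below every one for *Sag*, *Pde6b* and *Pde6g*, while its *Neurod4* is at 0.226 CPM.

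In nSREBP2 versus GFP, the comparison that asks what active SREBP2 changes in the RPE, all 9 genes passed the filter on low counts. All but *Neurod4* reached its limit in all 3 libraries of both groups, whereas *Neurod4* reached it in 1 GFP library and in all 3 of nSREBP2 and so could pass mainly by being high there. The edgeR quasi-likelihood fit called 4 of them (adjusted p under 0.05 and log2FC above 1), which were *Pde6b*, *Pde6g*, *Neurod1* and *Neurod4*, against a background of 4.71% of the 17927 genes tested that were called higher. The other 5 did not pass. In 5 genes (*Sag*, *Pde6b*, *Pde6g*, *Neurod1* and *Neurod4*) every nSREBP2 library lay above every GFP library, which held for 19.3% of all genes tested.

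*Sag*, rod arrestin, was at 5.31, 12.5 and 37.7 CPM in GFP and at 64.6, 50.1 and 46.6 CPM in nSREBP2. The groups did not overlap, and the fitted log2FC was 1.52 (SE 0.50, edgeR adjusted p = 0.0561), which missed the threshold. *Gnat1*, the rod transducin alpha subunit, was at 3.26, 15.4 and 47.6 CPM in GFP and at 39.5, 34.1 and 29.7 CPM in nSREBP2. Here GFP replicate 3 exceeded every nSREBP2 library, and the log2FC was 0.63 (SE 0.61, edgeR adjusted p = 0.531). Per kilobase of exon, *Gnat1* had the highest mean level of the 9 genes in nSREBP2, at 11.4 CPM per kb, followed by *Sag* at 6.04 and *Pde6g* at 5.20 CPM per kb.

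The phosphodiesterase subunits rose in part. *Pde6b*, the catalytic beta subunit, was at 3.60, 7.71 and 13.4 CPM in GFP and at 25.0, 21.9 and 18.3 CPM in nSREBP2 (log2FC 1.39, SE 0.35, edgeR adjusted p = 0.0184). *Pde6g*, the inhibitory subunit, was at 2.83, 5.32 and 7.69 CPM in GFP and at 12.5, 14.0 and 9.64 CPM in nSREBP2 (log2FC 1.19, SE 0.30, edgeR adjusted p = 0.0205). Neither gene overlapped between the groups. *Pde6a*, the catalytic alpha subunit, overlapped: its 1.54, 4.43 and 15.6 CPM in GFP reached above the lowest of its 23.7, 18.96 and 14.6 CPM in nSREBP2 (log2FC 1.38, SE 0.56, edgeR adjusted p = 0.118).

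Neither rod transcription factor passed the test. *Nrl*, which directs precursors to the rod fate, was at 1.03, 4.25 and 10.03 CPM in GFP and at 14.5, 12.2 and 9.73 CPM in nSREBP2 (log2FC 1.23, SE 0.53, edgeR adjusted p = 0.135). *Nr2e3*, which represses cone genes in rods, was at 1.28, 2.21 and 8.37 CPM in GFP and at 13.4, 9.57 and 7.55 CPM in nSREBP2 (log2FC 1.34, SE 0.53, edgeR adjusted p = 0.109). For both, GFP replicate 3 lay just above the lowest nSREBP2 library.

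The *Neurod* genes had the largest fitted differences of the 9. *Neurod1* was at 0.857, 0.886 and 4.83 CPM in GFP and at 10.6, 9.65 and 7.28 CPM in nSREBP2 (log2FC 2.03, SE 0.53, edgeR adjusted p = 0.0223). *Neurod4* was at 0.257, 1.33 and 0.226 CPM in GFP and at 4.66, 7.72 and 5.55 CPM in nSREBP2 (log2FC 3.33, SE 0.51, edgeR adjusted p = 0.00143). Its lowest nSREBP2 library stood 3.50-fold above its highest GFP library. In GFP replicates 1 and 3 *Neurod4* had no more than 3 counts.

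GFP replicate 3 decided most of these calls. Without it, edgeR called all 9 genes, with log2FC from 1.58 for *Pde6g* to 3.39 for *Neurod1* and 2.92 (SE 0.51, adjusted p = 0.00303) for *Neurod4*. Only *Neurod4* was called when the library left out was replicate 2 of GFP or replicate 1 or 2 of nSREBP2, and without GFP replicate 1 there were 2 calls. *Neurod4* was called in each of the 6 fits that left out 1 library, with log2FC from 2.92 to 4.58 and an adjusted p of at most 0.00910. The 4.58 came without GFP replicate 2, where the remaining GFP libraries had 3 counts each. There *Neurod4* passed the filter on low counts through the nSREBP2 libraries alone. Its direction in that fit was fixed by the filter, so that call is no support. A joint fit of the 18 libraries called 3 genes, and 6 once it adjusted for sex. That adjustment raised the log2FC of *Gnat1* to 2.97, *Sag* to 2.79, *Pde6a* to 3.17, *Pde6b* to 2.27, *Pde6g* to 2.65, *Nrl* to 2.68, *Nr2e3* to 2.53, *Neurod1* to 3.96 and *Neurod4* to 4.68. Sex was estimated from uninjected and *Lrp2* sh2, the only groups with libraries on both sides of the limit of 100 Y-linked counts. In *Lrp2* sh2 only replicate 1 was under that limit, and its rod gene sum was 204 CPM against 47.9 and 52.0 CPM. Sex and that library therefore cannot be told apart there, and nothing is read from the rise. DESeq2 in place of edgeR called 2, and edgeR without the filter on low counts called 8.

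**Figure D2:**
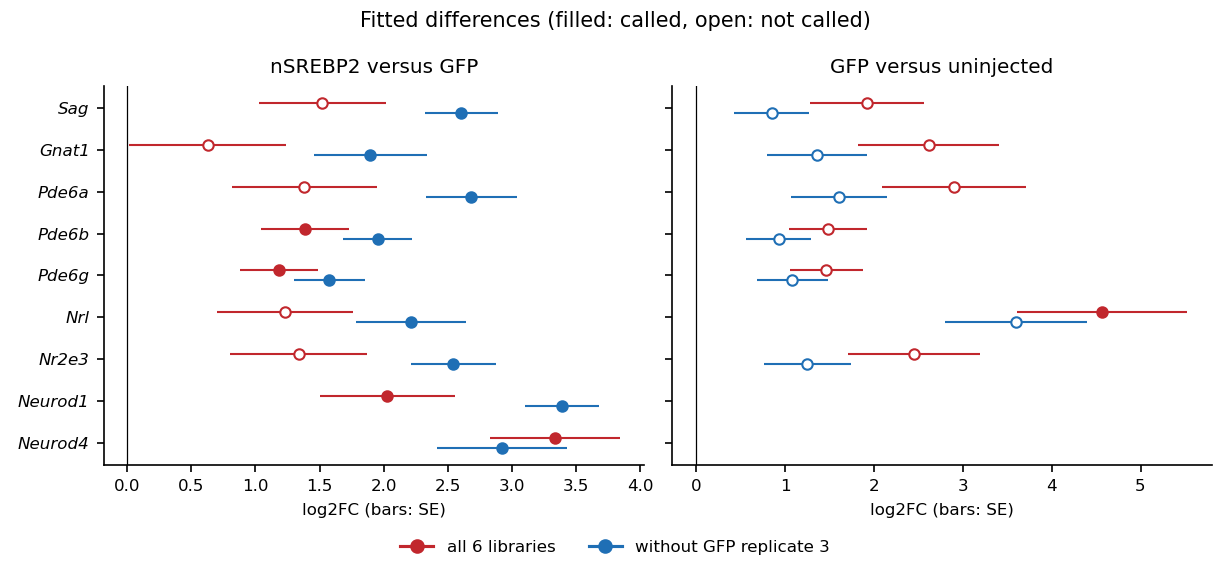
Fitted log2FC (x axis, with SE as bars) of each gene in nSREBP2 versus GFP (left) and GFP versus uninjected (right), with all 6 libraries (red) and without GFP replicate 3 (blue). Filled points were called by edgeR. Without that library all 9 genes are called on the left and none of the 7 tested on the right, where *Neurod1* and *Neurod4* did not pass the filter.

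GFP versus uninjected compares eyes given a control vector with eyes given none. Of the 9 genes 7 passed the filter on low counts, *Neurod1* and *Neurod4* being too low. *Nrl* passed through the GFP libraries alone, and *Pde6a* and *Nr2e3* reached the limit in 1 uninjected library, so the direction of *Nrl* was fixed by the filter and that of the other 2 in part. The fit called 1 of them, *Nrl*, against 0.219% of 17837 genes tested that were called higher. *Nrl* was at 0.102, 0.388 and 0.109 CPM in uninjected, the first and last of these at or under 3 counts, and at 1.03, 4.25 and 10.03 CPM in GFP (log2FC 4.57, SE 0.96, edgeR adjusted p = 0.0457). Without GFP replicate 3 its log2FC was 3.60 (SE 0.80, edgeR adjusted p = 0.0713), and the call was also lost without GFP replicate 2 or without any 1 of the uninjected libraries. DESeq2 called 5 genes, and edgeR without the filter called 8.

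The other 6 tested genes did not pass, with log2FC from 1.46 for *Pde6g* to 2.90 for *Pde6a* and edgeR adjusted p from 0.103 to 0.152. *Sag* was at 6.86, 3.004 and 4.81 CPM and *Gnat1* at 4.41, 2.71 and 3.72 CPM in uninjected, and in both genes GFP replicate 1 lay inside that range. In 6 genes (*Pde6a*, *Pde6b*, *Pde6g*, *Nrl*, *Nr2e3* and *Neurod1*) every GFP library was above every uninjected one, beside 13.7% of the genes tested. *Neurod1* had at most 1 count in any uninjected library and was at 0.857 CPM or more in GFP. Its GFP mean, 2.19 CPM, was 7.09-fold the floor of 3 counts per library, under which all uninjected libraries lay. That mean was raised by GFP replicate 3, at 4.83 CPM. *Neurod4* overlapped, at 0.410, 0.291 and 0 CPM in uninjected.

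In *Lrp2* sh1 versus ctrl sh, the first hairpin against *Lrp2*, no gene of the 9 was called. *Nr2e3*, *Neurod1* and *Neurod4* did not pass the filter, and the 6 tested had log2FC from -0.49 (*Gnat1*, SE 0.60) to 0.73 (*Pde6a*, SE 0.57), with edgeR adjusted p from 0.538 to 0.986 and none at an unadjusted p under 0.05. The background was low too, at 0.449% of 17801 genes called higher, and DESeq2, which tested 3 of the 9, called 0. *Sag* was at 2.31, 6.80 and 3.04 CPM in ctrl sh and at 2.22, 1.74 and 8.50 CPM in *Lrp2* sh1. *Lrp2* sh1 replicate 3 was the highest of its group in all 9 genes, and ctrl sh replicate 2 the highest of its group in *Sag*, *Gnat1*, *Pde6a*, *Pde6b*, *Nrl* and *Neurod1*. The ctrl sh libraries are the same as in the contrast that chose the genes.

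*Lrp2* sh2 versus ctrl sh is the contrast by which the genes were chosen, and its values carry no test. The level of *Sag* with *Lrp2* sh2 was 55.6, 17.5 and 13.4 CPM, and that of *Gnat1* was 60.1, 5.73 and 6.01 CPM against 1.66, 7.51 and 3.13 CPM in ctrl sh. *Pde6a* was at 25.7, 9.01 and 3.34 CPM, *Pde6b* at 23.5, 7.33 and 11.1 CPM and *Pde6g* at 13.5, 4.04 and 4.25 CPM. For the transcription factors the levels were 13.5, 2.19 and 7.51 CPM (*Nrl*), 12.3, 2.11 and 6.34 CPM (*Nr2e3*), 8.54, 2.78 and 1.75 CPM (*Neurod1*) and 7.82, 5.05 and 1.75 CPM (*Neurod4*). Replicate 1 was the highest of the 3 in all 9 genes.

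Relative to ctrl sh, the group means were 4.64-fold (*Pde6g*) to 13.6-fold (*Nr2e3*) higher for the 7 rod genes, and at least 18.6-fold higher for *Neurod1* and 20.8-fold higher for *Neurod4*, whose ctrl sh libraries were all at or under the floor of 3 counts. In 8 of the 9 genes, all but *Gnat1*, the groups did not overlap, beside 17.4% of all genes tested, and nothing is read from that count because the rule used this contrast. *Gnat1* is set by 1 library, since replicates 2 and 3 of *Lrp2* sh2 lay inside the ctrl sh range. 

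The 7 rod genes did not keep the same proportions in every library. *Gnat1* made up 38.0%, 40.5% and 38.9% of the *Gnat1* and *Sag* counts in the 3 nSREBP2 libraries, but 55.8% (exact 95% binomial interval 52.8 to 58.7) in GFP replicate 3 and 52.0% (49.4 to 54.6) in *Lrp2* sh2 replicate 1. It made up 24.6% (19.7 to 30.2) and 30.9% (25.0 to 37.3) in *Lrp2* sh2 replicates 2 and 3. GFP replicates 1 and 2 were at 38.0% (28.5 to 48.3) and 55.2% (49.6 to 60.8). These intervals cover counting error only. In nSREBP2 versus GFP as groups, *Gnat1* averaged 39.1% ± 1.30 and 49.7% ± 10.1 (SD, n = 3 each; two-sided exact permutation p = 0.3, where 0.1 is the smallest that 3 against 3 libraries allow). Of 11 such shares none had an adjusted p below 0.55.

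The *Neurod* genes differed in how they followed the rod genes. *Neurod1* made up 5.21%, 5.66% and 5.08% of the counts of itself and the 7 rod genes in nSREBP2, 3.32% (2.57 to 4.22) in GFP replicate 3 and 4.02% (3.30 to 4.83) in *Lrp2* sh2 replicate 1. *Neurod4*, on the same reckoning, made up 2.36%, 4.58% and 3.92% in nSREBP2 and 3.69% (3.01 to 4.48) in *Lrp2* sh2 replicate 1. In GFP replicate 3 it was 0.161% (0.0332 to 0.469), from 3 of 1865 counts. *Lrp2* sh2 replicate 2 had the highest *Neurod4* share, 9.54% (7.36 to 12.1). The rod gene sum of GFP replicate 3, 140 CPM, lay inside the nSREBP2 range of 136 to 193 CPM. GFP replicate 3 thus held a lower *Neurod4* share than any nSREBP2 library, by more than the counting error. This rests on 1 library. GFP replicates 1 and 2 were at 1.35% (0.278 to 3.88) and 2.5% (1.41 to 4.09), so the groups overlapped (exact permutation p = 0.2).

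**Figure D3:**
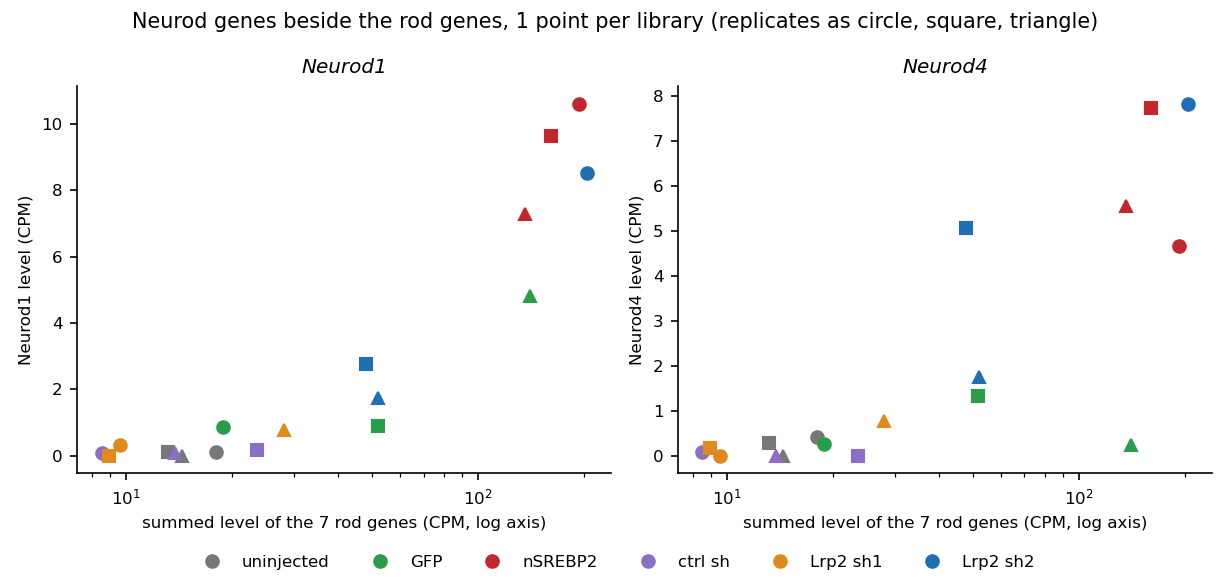
*Neurod1* (left) and *Neurod4* (right) level in CPM against the summed level of the 7 rod genes in CPM (log axis), 1 point per library, coloured by group. *Neurod1* is at 4.83 CPM or more in the 5 libraries with the highest rod sum and at 2.78 CPM or less in the others, whereas for *Neurod4* GFP replicate 3 (rod sum 140 CPM) lies at 0.226 CPM and *Lrp2* sh2 replicate 2 (rod sum 47.9 CPM) at 5.05 CPM.

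Likeness to the rod genes was measured as Pearson r of log2(CPM + 0.5) with the mean of the standardised rod genes over the 18 libraries, as a description; all libraries share 1 normalization, and the points fall into groups. *Neurod1* had r = 0.971 and *Neurod4* r = 0.842. The rod genes had r from 0.961 (*Gnat1*) to 0.987 (*Pde6b*). Each rod gene is part of the mean it was set against, which raises its r, so these values are not comparable with those of the *Neurod* genes. Of 17325 genes with a mean of at least 1 CPM, 47 reached 0.9. Among the 10 nearest were *Slc17a7*, the vesicular glutamate transporter of photoreceptor terminals (0.978), *Impg2*, a proteoglycan of the matrix between photoreceptors (0.977), *Pdc*, phosducin (0.974), *Cnga1*, the rod cGMP-gated channel (0.971), and *Rp1*, a protein of the photoreceptor axoneme (0.971).

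Over the 12 libraries outside *Lrp2* sh2 and ctrl sh, the values were 0.974 for *Neurod1* and 0.832 for *Neurod4*, and 7 of the 10 nearest genes of each list were in both. The genes nearest to *Neurod4* changed with the libraries used: *Lactbl1* (0.954) and *Grm6* (0.947) over the 18, which include those that chose the genes, and *Kmo* (0.971) and *Mdga2* (0.961) over the 12, where neither *Lactbl1* nor *Grm6* was among the nearest 5.

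The other genes of retinal neurons, read from lists of known markers, are given by their counts. Of 24 other rod genes, all tested in nSREBP2 versus GFP, 9 were called higher and 1 lower (median log2FC 1.27, beside -0.02 over all genes tested). Of those called higher, *Guca1a* passed the filter through the nSREBP2 libraries alone, so its direction was fixed by the filter and its call is no support. Examples, the last 2 picked by value, are *Impg2* (log2FC 1.52, SE 0.30, edgeR adjusted p = 0.00615), *Tulp1* (log2FC 1.86, SE 0.30, edgeR adjusted p = 0.00200) and *Guca1a*, a guanylate cyclase activator (log2FC 2.04, SE 0.33, edgeR adjusted p = 0.00201). *Pdc* did not pass (log2FC 1.42, SE 0.60, edgeR adjusted p = 0.130). *Slc24a1*, the rod sodium-calcium exchanger, was lower in GFP than in uninjected (log2FC -3.64, SE 0.41, edgeR adjusted p = 0.00516) and at the same mean in nSREBP2 and GFP (12.9 CPM each).

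Some bipolar and cone markers were also higher with nSREBP2 than with GFP; *Isl1*, *Cabp5* and *Lhx4* are named after their values were seen. Of 10 bipolar genes 7 were tested, and the 4 called higher (*Grm6*, *Isl1*, *Cabp5* and *Lhx4*) passed the filter on low counts through the nSREBP2 libraries alone, so that their direction was fixed by the filter and their number is no support. *Grm6*, the glutamate receptor gene of ON bipolar cells, was at 4.47, 5.62 and 2.73 CPM in nSREBP2, 0.257, 0.443 and 0.453 CPM in GFP, and 5.51, 3.62 and 1.42 CPM in *Lrp2* sh2 (nSREBP2 versus GFP log2FC 3.44, SE 0.40, edgeR adjusted p = 0.000293). The others were *Isl1* (log2FC 4.39), *Cabp5* (log2FC 4.08) and *Lhx4* (log2FC 3.15). GFP replicate 3, rich in rod transcripts, had *Grm6* at 0.453, *Cabp5* at 0.0754, *Lhx4* at 0.377 CPM and *Isl1* at 0. *Prkca*, abundant in every library at 54.3 to 79.4 CPM, did not pass (log2FC 0.05, SE 0.08, edgeR adjusted p = 0.721). The part of bipolar transcripts in the *Neurod4* result was not tested.

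Of 12 cone genes 10 were tested and 5 called higher with nSREBP2, of which *Pde6h* and *Cngb3* passed the filter through the nSREBP2 libraries alone. *Gnb3*, a transducin subunit of cones and ON bipolar cells, was at 17.8, 14.1 and 9.37 CPM against 1.54, 2.21 and 3.32 CPM in GFP (log2FC 2.53, SE 0.31, edgeR adjusted p = 0.000405). *Opn1sw*, the short-wave cone opsin, had a log2FC of 1.54 (SE 0.19, edgeR adjusted p = 0.000495), and *Thrb*, a thyroid hormone receptor, fell short of the log2FC limit (log2FC -0.46, SE 0.14). Between GFP and uninjected *Opn1sw* had a log2FC of -0.91 (SE 0.20, edgeR adjusted p = 0.0548). The 8 cone genes tested there went both ways, with *Gnb3* at 1.34 and a median log2FC of -0.25. The 7 rod genes had positive values, while other rod genes went both ways, with *Slc24a1* at -3.64 and *Rp1* at 2.54.

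**Figure D4:**
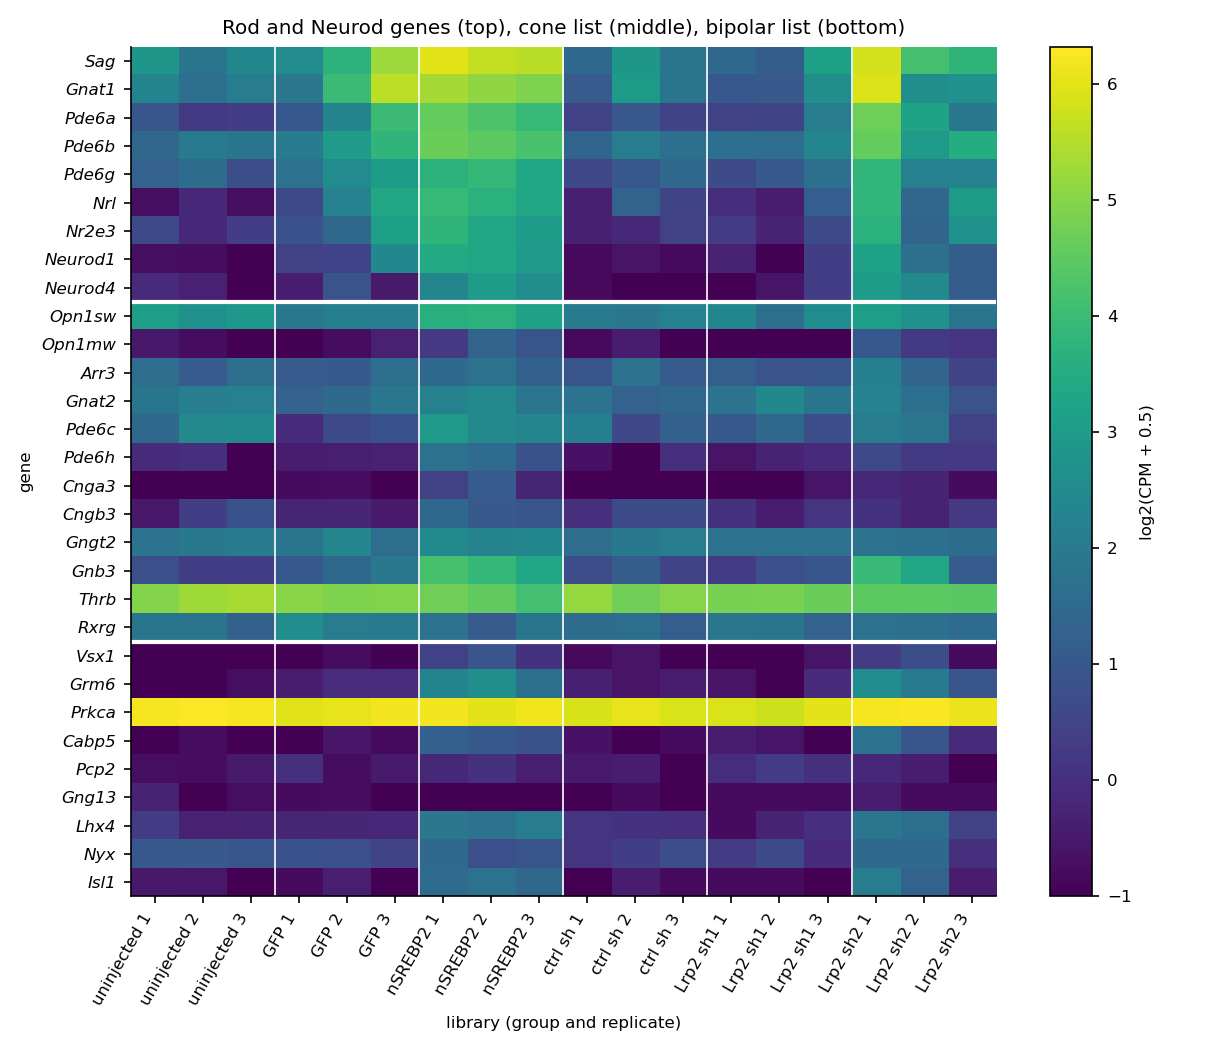
Levels as log2(CPM + 0.5) (colour) of the 9 genes (top rows), 12 cone genes (middle) and 9 bipolar genes (bottom) in each library, ordered by group and replicate. GFP replicate 3 is bright in the rod rows and dark in the *Neurod4*, *Grm6*, *Cabp5*, *Lhx4* and *Isl1* rows, while the nSREBP2 libraries are bright in both.

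The remaining lists of neural retina genes gave the calls below in nSREBP2 versus GFP. Over the 17927 genes tested, 844 (4.71%) were called higher and 351 lower. Of 10 photoreceptor transcription factor genes 2 were called higher and 1 lower, the latter *Otx2*, which RPE and photoreceptors both use (the mean level was 98.2 CPM in GFP and 30.2 CPM in nSREBP2; log2FC -1.69, SE 0.20, edgeR adjusted p = 0.000375). *Mef2c* and *Mef2d* stayed between 93.9 and 176 CPM in all libraries. Apart from the *Neurod* genes, 1 of 12 proneural bHLH genes, *Bhlhe22*, was high enough to test and was not called (5.37 ± 0.617 CPM in GFP and 5.78 ± 1.08 CPM in nSREBP2, SD, n = 3), and *Olig2* and *Bhlhe23* averaged 0.510 and 0.207 CPM. Of the tested genes of amacrine and horizontal cells 1 of 4 was called higher (*Onecut2*, past the filter through nSREBP2 alone) and 1 lower, of ganglion cells 1 of 5 higher (*Thy1*, log2FC 1.35), and no Müller glia gene of the 7 tested passed both limits. The most abundant of these were *Slc6a9* (log2FC -1.62, called lower), *Tfap2b* (0.54) and *Tfap2a* (0.43), then *Rbpms* (-0.37) and *Sncg* (-0.29), then *Glul* (-0.73), *Dkk3* (-0.22) and *Gfap* (0.05), none but *Slc6a9* past the log2FC limit.

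RPE genes moved apart from the rod genes. Of 15 RPE genes 8 were called lower in GFP than in uninjected, beside 212 of all 17837 genes tested. Among the 8, picked by value, were *Lrat* (log2FC -4.63, SE 0.44, edgeR adjusted p = 0.00276) and *Ttr* (log2FC -4.86, SE 0.41, edgeR adjusted p = 0.00210). *Tyrp1* did not pass (log2FC 0.00, SE 0.20). In nSREBP2 versus GFP 1 was called higher and 2 lower, and the abundant pigment cell genes *Pmel* (log2FC 0.10), *Dct* (log2FC -0.08) and *Tyrp1* (log2FC -0.11) were not called.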

How the data were processed

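The deposited values are counts of reads per gene for each library; per the labels and the study's methods the authors depleted ribosomal RNA, made strand-directional paired-end libraries and aligned and counted reads with STAR at default settings on GRCm38, and the strand column and annotation are not given in the sources used here. Counts were filtered with filterByExpr, scaled by TMM and tested pairwise in edgeR 4.0.16 (quasi-likelihood test, R 4.3.3) with Benjamini-Hochberg adjustment over all genes tested. A gene was called at an adjusted p under 0.05 and an absolute log2FC above 1, the limits of the study. CPM used TMM factors from the whole set of 18 libraries, and the floor is 3 counts. The fit was tested on simulated data. DESeq2 1.42.0, other fits and fits without 1 library were alternatives. Exon lengths came from GENCODE and promoters from RefSeq. Besides the 9 genes, the text names the 3 most abundant genes of each list, those most like the rod genes and others said to be picked by value; some genes that this rule picks are not reported here. The members and lists were chosen with earlier results of these data known.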

Additional observations from a re-analysis of the deposited data

How the results depend on the processing

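In nSREBP2 versus GFP, 4 of the 9 genes were called, and the count was 2 with DESeq2, 8 without the filter on low counts, 9 with uninjected as the control, 1 to 9 when 1 library was left out, and 5 with a replicate block. In GFP versus uninjected, 1 was called, and the count was 5 with DESeq2, 8 without the filter, 3 with all 18 libraries in one fit, 2 with sex added to that fit, and 0 to 2 when 1 library was left out. The replicate block gave 1 there and 0 in *Lrp2* sh1 versus ctrl sh. Replicate numbers belong to separate mice, and deviations from group means correlated between same-numbered libraries at -0.26 to 0.13, so the numbers do not pair the samples. In *Lrp2* sh2 versus ctrl sh the median log2FC was 2.85, 3.63 with sex as a term, and 2.17 to 3.64 when 1 library was left out. In *Lrp2* sh1 versus ctrl sh no alternative called a gene, but signs changed. *Sag* went from 0.03 to -0.11 with the replicate block, -0.24 against uninjected and -1.03 to 0.63 when 1 library was left out, and *Pde6g* from 0.21 to -0.089 against uninjected. Leaving out 1 library also changed the sign of *Gnat1* (-1.40 to 0.29), *Pde6a* (-0.29 to 1.08), *Pde6b* (-0.13 to 0.44), *Pde6g* (-0.21 to 0.52) and *Nrl* (-1.54 to 0.48). The cause of these changes was not tested. With 3 libraries a group and some genes at a few counts, a p that misses the threshold does not show that levels were equal.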
